A study of Arabidopsis thaliana with 12 samples.

Results

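CCL (AT3G26740), annotated as CCR-like in the reference gene table, is 1 of 691 genes with a probe of their own on an array of 3439 probes, and it is described here in all 12 samples of the series. It was found through the platform annotation, which assigns its probe to this single gene, and it was chosen by its measured difference in intensity between the groups below. Its levels and ranks are therefore a description and carry no test. The recovery group held 6 samples of total RNA from wild-type *Arabidopsis thaliana* plants, ecotype Columbia 0. These plants had spent 1 h at 1000 µE, a light stress, and had then been returned to 80 µE. The time back at 80 µE is 2 h in the titles and 1 h in the source names. The control group held 6 samples of the same ecotype kept at 80 µE, with 0 h in their titles. Since the titles differ in time as well as in light, sampling time and light cannot be told apart. The labels name no organ, and whether the samples of a group came from different plants is not stated. Any p-value therefore measures only the spread between these samples, part of which may be technical.

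The circadian clock of plants is an internal oscillator that sets the level of many transcripts by the time of day, and light resets it. CCL takes its name from the CCR genes, which code for glycine-rich RNA-binding proteins under clock control. Its own transcript is known to be clock-controlled, and its messenger RNA is an unstable one whose decay is itself under clock control. With 1 time in the titles of each group, a daily rhythm of CCL could not be examined in these samples.

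The deposited values are linear intensities from 0 to a ceiling of 100. Column medians ran from 0.196 to 0.458, and they were higher in recovery 1, 2, 5 and 6 (0.426 to 0.458) than in the other samples (0.196 to 0.284). Samples 1 and 2, 3 and 4, and 5 and 6 of a group resembled each other, with correlations of 0.853 to 0.942 over all features. Samples of different pairs correlated at 0.683 to 0.824. CCL was never at 0 or near the ceiling.

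The CCL signal was higher in every recovery sample than in any control sample. In recovery samples its deposited intensity was 6.02 and 7.38 in numbers 1 and 2, 12.2 and 10.8 in numbers 3 and 4, and 8.68 and 9.30 in numbers 5 and 6. In control samples it was 3.15 and 3.68 in numbers 1 and 2, 2.68 and 3.22 in numbers 3 and 4, and 1.31 and 1.74 in numbers 5 and 6. The lowest recovery value thus lay above the highest control value, and the groups did not overlap. The means were 9.07 ± 2.25 in recovery samples and 2.63 ± 0.923 in control samples (SD, n = 6 each). Over all features, 58 of 3438 (1.69%) had every recovery value above every control value after normalisation. CCL was 1 of them, which its choice by its difference in intensity favours. The opposite order was seen in 94 features (2.73%).

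**Figure D1:**
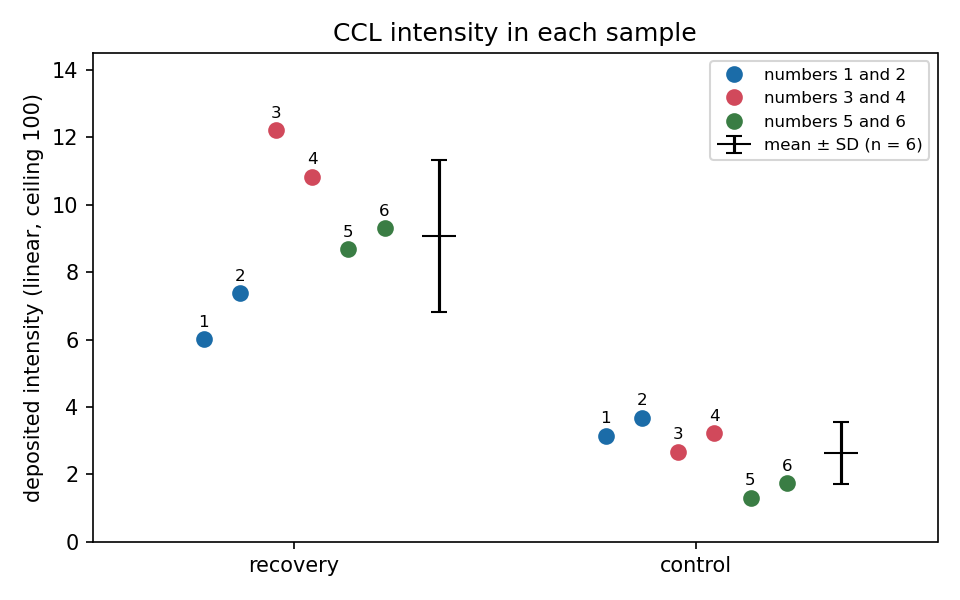
Deposited CCL intensity (vertical axis, linear, ceiling 100) in the 6 recovery and 6 control samples, each point labelled with its replicate number and coloured by pair of numbers. Bars give the mean ± SD. Recovery values run from 6.02 to 12.2 and control values from 1.31 to 3.68.

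The rank of CCL within each array does not depend on how a column was scaled. Ordered by intensity from the brightest of 3439 probes, CCL stood at ranks 58 and 47 in recovery 1 and 2, 32 and 34 in recovery 3 and 4, and 45 and 42 in recovery 5 and 6. It stood at 145 and 127 in control 1 and 2, 183 and 151 in control 3 and 4, and 292 and 221 in control 5 and 6. The ranks of the groups did not overlap. Among the 692 probes with a single gene, CCL was the sixth or seventh brightest in every recovery sample, with ranks of 6 to 7, against ranks of 15 to 42 in control samples. A rank orders the brightness of probes and does not measure how abundant one transcript is relative to another.

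After quantile normalisation the log2 level of CCL was 3.21 ± 0.32 in recovery samples and 1.32 ± 0.40 in control samples (SD, n = 6 each). The log2 difference of 1.89 corresponds to a level 3.71-fold higher in recovery samples. The difference was above 0 for each of the 6 replicate numbers, at 1.15 and 1.29 in numbers 1 and 2, 2.31 and 1.99 in numbers 3 and 4, and 2.44 and 2.17 in numbers 5 and 6. The SD of these 6 differences was 0.54.

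Most of that spread lay between the pairs of numbers. The mean log2 difference was 1.22 in numbers 1 and 2 (2.33-fold), 2.15 in numbers 3 and 4 (4.45-fold) and 2.30 in numbers 5 and 6 (4.94-fold). The differences of the numbers within a pair lay 0.15, 0.32 and 0.27 apart, so the pair of numbers 1 and 2 stood below the others by more than the gap within any pair. The groups contributed differently to the differences. The recovery level was highest in numbers 3 and 4, at a mean log2 of 3.57, against 2.89 in numbers 1 and 2 and 3.16 in numbers 5 and 6. The control level was lowest in numbers 5 and 6, at 0.86, against 1.68 in numbers 1 and 2 and 1.41 in numbers 3 and 4. In numbers 1 and 2 the lowest recovery level and the highest control level came together.

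The difference seen in numbers 1 and 2 depended on the scaling of the columns. On the values as deposited, CCL was 1.91-fold and 2.00-fold higher in recovery 1 and 2 than in the controls of the same number. The column medians of recovery 1 and 2 were themselves above those of control 1 and 2, at 0.458 and 0.448 against 0.284 and 0.271. Divided by the median of its column, CCL was 13.1 and 16.5 in recovery 1 and 2, and 11.1 and 13.6 in control 1 and 2. On that scale the ratio was 1.18 in number 1 and 1.21 in number 2, and recovery 1 lay below control 2 and control 4 (15.2), so the groups overlapped. The ratio in numbers 3 and 4 was 5.02 and 3.65, and that in numbers 5 and 6 was 3.10 and 2.53. Divided by the 90th percentile of its column, a setting chosen after these values were seen, CCL ran from 3.95 to 9.10 in recovery samples and from 1.23 to 2.45 in control samples, with no overlap.

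Over all 6 numbers the log2 difference of CCL was 1.84 as deposited, 1.80 after cyclic loess, 1.69 with the 90th percentile as the scale and 1.28 with the column median as the scale. The last corresponds to a 2.43-fold higher level in recovery samples. In the 7 scalings and floors compared number by number, the smallest difference was 0.24, in number 1 after median centring, and none was below 0.

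**Figure D2:**
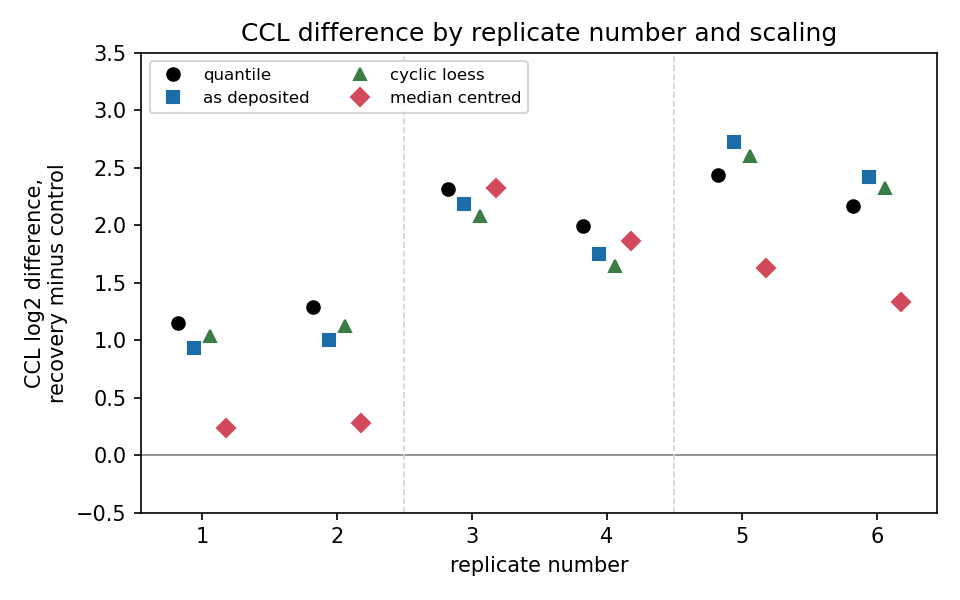
Log2 difference of CCL, recovery minus control (vertical axis), for each replicate number (horizontal axis) under 4 scalings of the columns, with dashed lines between the pairs. Under quantile normalisation the points run from 1.15 to 2.44, and median centring brings numbers 1 and 2 to 0.24 and 0.28.

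Ordered by the mean log2 difference after quantile normalisation, CCL stood at rank 18 of 3438 features and at rank 3 of the 691 genes with a probe of their own. That rank depended on the samples. It ran from 9, without control 4, to 37, without control 5, when 1 sample was left out, and was 36 without recovery 3 or without recovery 4. It was 25 without samples 1 and 2 of both groups, 59 without samples 3 and 4, and 81 without samples 5 and 6. Of the 17 features with a larger difference over all samples, 10 had overlapping groups and 7 were at the floor of the scale in 1 or more samples. Over all 3438 features, 58 (1.69%) had every recovery value above every control value, and 2241 were above the floor in all 12 samples. The 2 counts therefore do not mark these 17 features as weaker than features in general. Within single pairs CCL stood lower after quantile normalisation, at rank 218 in numbers 1 and 2, 215 in numbers 3 and 4 and 64 in numbers 5 and 6. On that scale the larger differences within a pair thus belonged mostly to other features, and CCL stood nearer the top when the pairs were averaged. In the same order of pairs the ranks were 1030, 258 and 232 as deposited or after median centring. They were 186, 344 and 18 after cyclic loess. Ordered by the smallest of the 6 differences after quantile normalisation, CCL stood at rank 8 of 3438. Ordered by the gap between the lowest recovery and the highest control value, which was 0.98 on the log2 scale, it stood at rank 3 of all features and first among the genes with a probe of their own. On the deposited scale that gap was 0.71 and the second among those genes, and after median centring it was -0.21. The rank of the mean difference was 20 after cyclic loess. It was 106 where columns were left as deposited or multiplied by a constant, since such a constant shifts all features alike.

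CCL combined a large difference with a bright signal. Its mean log2 level stood at rank 41 of 3438 in recovery samples and at 147 in control samples. Of the 344 features in the brightest 10% by their mean over all samples, 7 had a larger difference.

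**Figure D3:**
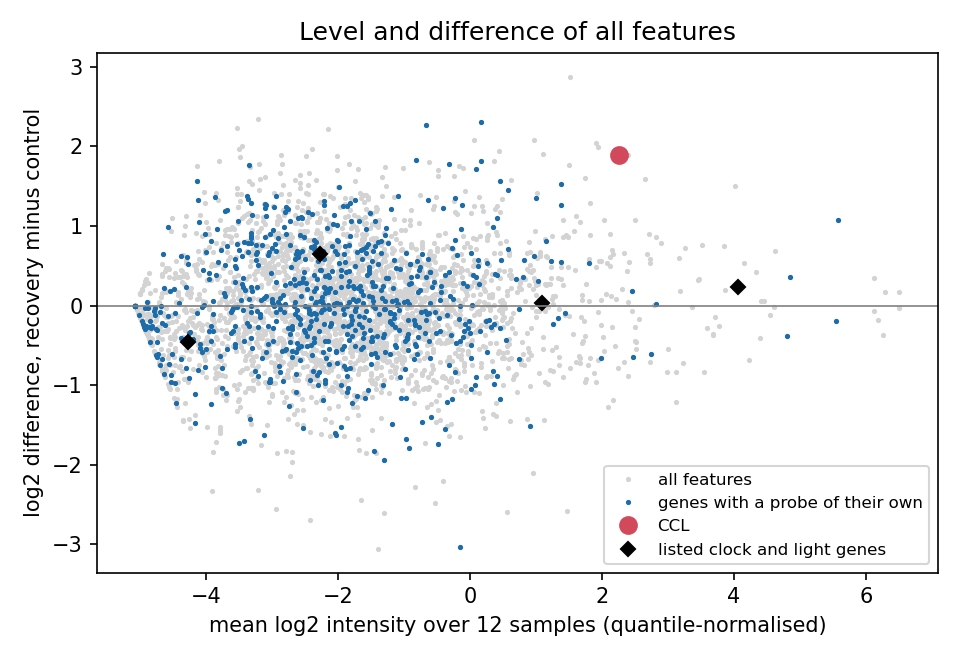
Mean log2 intensity over the 12 samples (horizontal axis) against the log2 difference, recovery minus control (vertical axis), after quantile normalisation. Each small point is 1 of 3438 features, CCL is at 2.26 and 1.89, and the 4 diamonds are the listed clock and light genes, which lie between -0.46 and 0.65 on the vertical axis.

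The genes with a probe of their own next to CCL in this order were 2 above it and 2 below it. The SD of the 6 differences was 0.69 for AT5G58330 and 1.30 for AT5G46560, against 0.54 for CCL. NADP-dependent malate dehydrogenase (AT5G58330) makes the malate that carries reducing power out of the chloroplast. The log2 difference of AT5G58330 was 2.31, with 1.98, 1.76 and 3.18 in the pairs of numbers 1 and 2, 3 and 4, and 5 and 6. AT4G31930 had 2.27, made up of 0.60, 5.06 and 1.15. Just under CCL, AT1G50770 had 1.83, made up of 1.12, 0.06 and 4.32. AT5G46560 had 1.81, made up of 0.98, 3.48 and 0.98. AT4G31930 was at the floor in 2 samples and AT1G50770 in 1, so the sizes of their largest differences are set by the floor. For these genes the groups overlapped, while for AT5G58330 and AT5G46560 they did not.

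Genes with a profile like that of CCL were ordered by Pearson's r over the 12 normalised log2 values, among 591 genes with a probe of their own that were at the floor in at most 3 samples. The median r over these genes was 0.03. An r over both groups rests mainly on the difference between them, and all values come from the same 12 arrays. The highest was that of AT5G58330 (r = 0.876, Spearman's rho = 0.846), followed by AT5G52810 (0.869, rho = 0.706), AT1G35510 (0.849, rho = 0.734), AT3G13150 (0.835, rho = 0.734) and AT2G27290 (0.834, rho = 0.719). Without control 5 and recovery 3, which lay farthest from the median of CCL, these r values were 0.904, 0.894, 0.831, 0.864 and 0.788. The first 4 of these genes had groups that did not overlap, as CCL did, and the groups of AT2G27290 overlapped. After median centring 1 of the 5 stayed among the 5 most similar genes, as did 3 on the deposited scale and 4 after cyclic loess.

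Within the groups these genes followed CCL less closely. Over the 12 deviations from the group means, r with CCL was 0.09 for AT5G58330, -0.06 for AT5G52810, 0.38 for AT1G35510, -0.14 for AT3G13150 and 0.51 for AT2G27290. AT5G58330 was highest in recovery 2, 5 and 6, whereas CCL was highest in recovery 3 and 4. The genes most like CCL in these deviations were others, AT1G51350 (r = 0.838, rho = 0.839), AT4G30680 (0.798, rho = 0.713), AT3G19810 (0.796, rho = 0.727), AT4G31530 (0.771, rho = 0.636) and AT1G50000 (0.767, rho = 0.748). Without control 5 and recovery 1 these values were 0.885, 0.560, 0.693, 0.717 and 0.705. The recovery and control values of each of these 5 genes overlapped. Samples of a pair resemble each other, so the 12 deviations are not independent points. No gene was in both sets of 5. Of the second set 1 stayed after median centring.

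**Figure D4:**
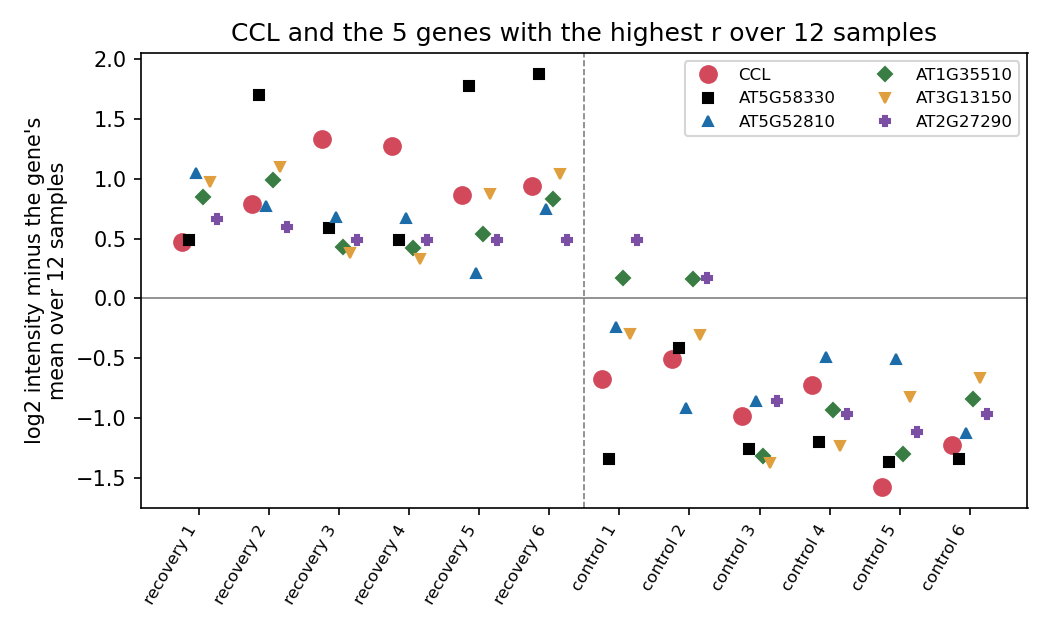
Log2 intensity minus the gene's own mean over 12 samples (vertical axis) in each sample (horizontal axis) for CCL and the 5 genes with the highest r with it. All 6 genes are higher in recovery samples on average, and CCL is highest in recovery 3 and 4 while AT5G58330 is highest in recovery 6.

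Other genes of the clock and of processes that the clock and light control were taken from 8 lists of 152 genes. They comprised clock components, clock-regulated transcripts, photoreceptors, starch metabolism, plastid sigma factors, antenna and Rubisco genes, chlorophyll synthesis and dark-induced genes. Of the 152 genes, 4 had a probe of their own, and 7 more shared a probe with other genes and were not analysed here. None of the 4 passed the limma test across all features (adjusted p under 0.05), where 104 of 3438 features (3.03%) did, 41 (1.19%) higher and 63 (1.83%) lower in recovery samples. At an unadjusted p under 0.05 in the same limma fit, 0 of the 4 passed, against 629 of 3438 features. With 4 genes, neither count of 0 sets the listed genes apart from all features in that fit. That fit counts samples of a pair as independent. With the pairs as a random block limma called 3 features and with pairs averaged 0 (203 at an unadjusted p under 0.05), and on the deposited scale 79 features were called higher and 30 lower. The median log2 difference of the 4 listed genes was 0.13, against -0.02 over all features. With 1 gene of the clock list and no gene of the list of clock-regulated transcripts measured on its own, the clock itself could not be followed on this array.

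The 1 gene of the clock list, AT5G52660, was close to the floor, with deposited intensities of 0 to 0.184 in recovery samples (median 0.0577) and 0 to 0.130 in control samples (median 0.0391). Of its normalised values 3 of 6 in recovery and 2 of 6 in control were at the floor, so its log2 difference of -0.46 (limma, adjusted p = 0.677) is not interpretable as a size, and it was 0.45 on the deposited scale, 0.020 after cyclic loess and 0.30 with the 90th percentile as the scale. The groups overlapped.

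The chlorophyll antenna gene LHB1B2 (AT2G34420), whose protein gathers light for photosystem II, was bright in every sample. Its deposited intensity ran from 13.3 to 19.0 in recovery samples (median 18.2) and from 14.6 to 20.1 in control samples (median 16.8), and the groups overlapped. The log2 difference was 0.23 with a standard error of 0.17 (limma, adjusted p = 0.491), and it was below 0 after median centring (-0.53) and with the 90th percentile as the scale (-0.12).

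CHLM (AT4G25080), the magnesium protoporphyrin IX methyltransferase of chlorophyll synthesis, ran from 0.0871 to 0.727 in recovery samples (median 0.378) and from 0.0267 to 0.201 in control samples (median 0.138), and the groups overlapped. Its log2 difference was 0.65 with a standard error of 0.38 (limma, adjusted p = 0.397). It was 1.29 on the deposited scale, 1.15 with the 90th percentile as the scale, 1.13 without samples 3 and 4 of both groups and 0.017 without samples 5 and 6, with an adjusted p of 0.169 to 0.992 over all alternatives. It was 1.90 in numbers 5 and 6 and -0.33 in numbers 3 and 4, where that of CCL was 2.15.

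AT1G74470, the geranylgeranyl reductase that makes the side chain of chlorophyll, ran from 1.80 to 3.32 in recovery samples (median 2.00) and from 1.14 to 3.11 in control samples (median 2.09), and the groups overlapped. Its log2 difference was 0.03 with a standard error of 0.28 (limma, adjusted p = 0.974), made up of -0.63, 1.15 and -0.44 in the pairs of numbers 1 and 2, 3 and 4, and 5 and 6. It was -0.40 after median centring. Without samples 3 and 4 of both groups it was -0.54 and passed the test (adjusted p = 0.0398), although the samples of each remaining pair entered that fit as separate samples.

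Samples 3 and 4 differed from the rest of the series in the comparison of the groups. Across all features the differences between recovery and control in numbers 3 and 4 had a correlation of -0.03 with those in numbers 1 and 2 and of -0.01 with those in numbers 5 and 6, against 0.50 between the differences in numbers 1 and 2 and those in numbers 5 and 6. CCL had its highest recovery intensities there, 12.2 and 10.8, and its log2 difference in numbers 3 and 4, 2.15, lay between those of the other pairs, as its choice over all 12 samples favours. The 5 genes with the highest r with CCL over 12 samples also had log2 differences above 0 in numbers 3 and 4. These were AT5G58330 (1.76), AT5G52810 (1.35), AT1G35510 (1.55), AT3G13150 (1.65) and AT2G27290 (1.40). Their choice by r with CCL over the same 12 samples favours this. Without samples 3 and 4 the difference of CCL was 1.76, without samples 1 and 2 it was 2.23, and without samples 5 and 6 it was 1.69.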

How the data were processed

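Total RNA of 12 samples was read on 1-channel arrays. The values the authors deposited are linear intensity values, and how they were scaled or background-corrected is not given in the sources used here. Group and replicate number come from the titles. Of 3439 probes, 692 had 1 gene in the platform annotation, 870 several and 1877 were unnamed here, and 690 of the 692 were found in the reference gene table (TAIR10.1). The gene with 2 probes was averaged, leaving 3438 features. Intensities were quantile-normalised (limma 3.58.1, R 4.3.3), floored at the 5th percentile of the positive values (0.0298, -5.07 on the log2 scale) and log2-transformed. A fold change near the floor is understated.

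Listed genes were compared with limma (lmFit, eBayes) over all 12 samples, two-sided, with Benjamini-Hochberg adjustment over all features. The fit was tested on simulated data with independent samples. Samples of a pair resemble each other here, so that test does not cover the fit under such dependence. CCL, the gene lists and the alternatives were chosen with earlier results of these data known. The text names CCL, listed genes with a probe of their own, the 5 genes most like CCL by each measure, and the 2 genes above and below it. Other genes were chosen after their values were seen.

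Between recovery and control samples with the same number, deviations from the group means had correlations of 0.110 to 0.462. With samples of the other pairs these were -0.229 to 0.008. With the other number of the same pair they were 0.081 to 0.168. In numbers 3 and 4 the same-number values, 0.110 and 0.111, lay near those of the other number, 0.081 and 0.088. The numbers in the titles were taken to pair the samples on these correlations. For CCL alone the correlation of same-number deviations was -0.13, so its differences by number are not shown to come from matched samples. The number of arrays limits the precision. The sequence of CCL and its promoter were not analysed here.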

Additional observations from a re-analysis of the deposited data

Results flagged for a closer look

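In 46 groups of 6 samples, for 23 genes named in the text, the gap between the highest or lowest sample and its nearest neighbour was set against the range of the group. Chance puts about 1 in 20 such groups past Dixon's critical value at 95%, and 2 were past it. That rate assumes independent samples, and samples of a pair resemble each other here, so it may not hold. Neither concerned CCL. For AT5G58330 control 2 was the highest control, at a log2 level of -0.25 against -1.20 to -1.04 (gap share 0.826). For CHLM control 6 was the lowest control, at -3.90 against -2.74 to -2.16 (gap share 0.665).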

How the results depend on the processing

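The log2 difference of CCL, 1.89, stayed above 0 in all 25 alternatives. It moved by more than the spread within groups (0.36) in 1 of them, to 1.28 after median centring. Leaving out 1 sample at a time gave 1.77 to 1.99. With the replicate number as a replicate block it was 1.89 with a standard error of 0.23, which was 0.29 with the pairs as a random block and 0.36 with pairs averaged. The count of features called by limma, 104 (41 higher and 63 lower), gave 65 after median centring (14 higher and 51 lower), 60 after cyclic loess, 68 without dim probes and 49 with the 90th percentile as the scale, the last chosen after the data were seen. As deposited it was 109 (79 higher and 30 lower). It was 28 without samples 1 and 2 of both groups, 416 without samples 3 and 4, 10 without samples 5 and 6, 0 with pairs averaged (203 at an unadjusted p under 0.05), 3 with the pairs as a random block and 106 with the replicate block. Leaving out 1 sample at a time gave 42 to 93. The count was over 1.5 times lower without recovery 1 (55), recovery 2 (51), recovery 5 (42), recovery 6 (46), control 3 (61), control 4 (65), control 5 (65) or control 6 (68). The count of listed genes called was 0 except without samples 3 and 4, where it was 1 (AT1G74470), and leaving out 1 sample gave 0. The log2 difference of AT5G52660, -0.46, was 0.45 as deposited, 0.020 after cyclic loess and 0.30 with the 90th percentile as the scale. That of LHB1B2, 0.23, was -0.53 after median centring and -0.12 with the 90th percentile. That of AT1G74470, 0.03, was -0.40 after median centring, -0.54 without samples 3 and 4 and -0.15 to 0.12 with 1 sample left out. The replicate block changed no call among the listed genes. The cause of these shifts was not tested. Signal over background could not be examined, and the floor limits dim genes such as AT5G52660.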

Other observations

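AT1G62250, a gene chosen after its values were seen, ran opposite to CCL. Its r with CCL over 12 samples was -0.970 (rho = -0.956), the lowest of 591 genes, and -0.965 without control 5 and recovery 3. Over the deviations from the group means r was -0.718, and 5 genes had an r with CCL from 0.767 to 0.838. After median centring the r of AT1G62250 over these deviations was 0.65, so its sign within the groups depended on the scaling. Its log2 level ran from 2.34 to 2.66 in recovery samples and from 2.95 to 3.20 in control samples, so the groups did not overlap, and its log2 difference was -0.60. The r over 12 samples was -0.951 on the deposited scale and -0.981 after cyclic loess. After median centring it was -0.296, and 130 genes had a lower r.

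The chromosome around CCL was looked at after the values were seen, in the gene order of the reference gene table. Of the 100 protein-coding genes nearest to CCL, 50 on either side, 4 had a probe of their own. The neighbour AT3G26730 had a log2 difference of 1.77 with a standard error of 0.67 (limma, adjusted p = 0.179), with 3.03 in numbers 1 and 2, -0.13 in numbers 3 and 4 and 2.41 in numbers 5 and 6, and 3 of its values were at the floor. AT3G26630, 11 genes away on the same side, had 1.45 (limma, adjusted p = 0.0350, 0.0500213 with the replicate block and 0.275 with the pairs as a random block, both of which ended the call). AT3G26580, 18 genes away on that side, had 0.81 (adjusted p = 0.217). AT3G27110, 46 genes away on the other side, had -0.58 (adjusted p = 0.577) and 3 values at the floor, and it was 0.094 on the deposited scale. With 4 genes measured, no pattern along the chromosome was tested.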
